A study of Mus musculus with 6 samples.

Results

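The genes described here encode the machinery of regulated vesicle release: synaptotagmins, SNARE proteins and their partners, Rab3 GTPases, synapsins and SV2 proteins. They were chosen by gene symbol alone, as every Syt, Stx or Vamp gene with a number, every numbered Stxbp gene, Cplx1 to Cplx4, Rab3a to Rab3d, Syn1 to Syn3, Sv2a to Sv2c, and Snap25. This rule took 62 of the 17971 genes in the table: 17 Syt, 15 Stx, 8 Vamp, 7 Stxbp, 4 Cplx, 4 Rab3, 3 Syn and 3 Sv2 genes and Snap25. Of these, 56 had enough counts to be tested, among 14338 tested genes in all. The other 6 were Cplx3, Cplx4, Stx19, Syt6, Syt8 and Vamp9, none of which reached 1 TPM in any library (TPM is a level scaled for transcript length and library).

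RNA-seq was done on dorsal root ganglia (DRG), which hold the cell bodies of sensory neurons and their glia, of male mouse embryos at E13.5. The 3 cKO samples had the genotype Wnt1-cre+/-;Ybx1fl/fl, and the 3 Ctrl samples were littermates with the genotype Ybx1fl/fl. All 6 thus carried floxed Ybx1, which encodes a Y-box protein that binds RNA and DNA, and the Cre, driven by Wnt1 sequences, acts in the neural crest lineage that gives rise to both the neurons and the glia of the ganglion. No group had Cre with an intact Ybx1, so effects of Cre and of the loss of Ybx1 cannot be told apart, and neither the strain nor the number of embryos per sample is given in the sources used here.

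Totals ran from 16464264 to 17446385 counts per library. Ybx1, the targeted gene, stood at 927, 809 and 817 CPM (counts scaled by TMM to a common library size) in Ctrl 1 to 3 and at 137, 122 and 108 CPM in cKO 1 to 3. Its log2 fold change of -2.80 (SE 0.10) had an adjusted p of 8.42e-08 (edgeR). The summed level of 10 neuronal markers was 14581 to 16389 TPM, with cKO 1 the lowest, and with the replicate block 2 of them (Isl1 among them) were lower in cKO and 1 higher. The sum of 6 sensory neuron identity genes (Isl1, Pou4f1 and Prph among them) was 3145 to 3694 TPM. Glial markers summed to 2338 to 2380 TPM in Ctrl and 2466 to 2502 TPM in cKO, and 4 of 7 were higher with the block. Of spinal cord markers, 6 were in the table, at summed levels of 0.13 to 0.33 TPM in Ctrl and 0.67 to 2.17 TPM in cKO, and the 1 with enough counts to be tested was called higher without and with the block. The 7 erythroid genes summed to 36472 TPM in cKO 1 and to 10591 to 17443 TPM in the other libraries. Macrophage markers summed to 101 to 119 TPM in Ctrl and to 174, 131 and 125 TPM in cKO 1 to 3. The part of these differences in the results below was not tested.

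In regulated release, a vesicle is held in a pool by synapsins, brought to the membrane with the help of Rab3 GTPases, and fused by SNARE proteins that zip together from the vesicle side (Vamp) and the target side (syntaxin and Snap25). Syntaxin-binding proteins, encoded by Stxbp genes, and complexins control the zippering, and synaptotagmins on the vesicle sense calcium and trigger fusion. In embryonic sensory neurons, whose axons are still growing towards their targets, related SNARE proteins also serve the traffic that adds membrane to the axon and sorts cargo between Golgi, endosome and lysosome.

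The set was expressed broadly in these ganglia. The 62 genes summed to 3061, 3317 and 3175 TPM in Ctrl 1 to 3 and to 2761, 3360 and 3212 TPM in cKO 1 to 3, or 0.276% to 0.336% of all transcripts. The groups overlapped, and cKO 1 was the lowest. Of the tested members, 10 had a mean above 100 TPM and 7 a mean below 5 TPM. Among those described here, Rab3a led with 346 TPM, followed by Syt11 (255 TPM), Vamp2 (216 TPM), Syt13 (164 TPM), Stx7 (161 TPM), Snap25 (155 TPM) and Stx12 (141 TPM), each a mean over the 6 libraries. The plot of levels by library shows 60 of the members in every library.

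**Figure D1:**
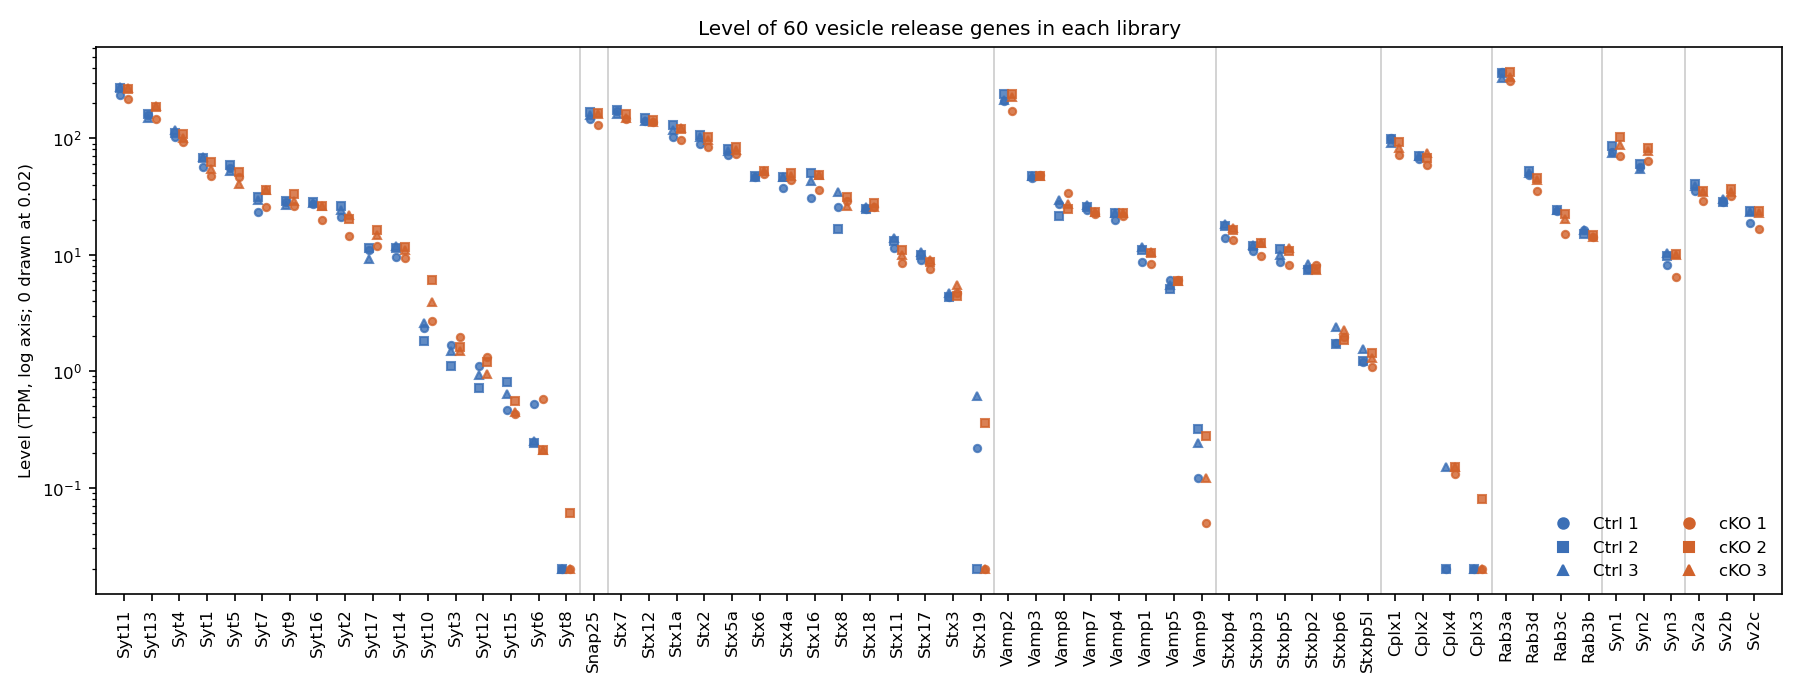
Level of 60 of the genes in each library (TPM, log axis, values of 0 drawn at 0.02), ordered by family and mean level. Blue points are the 3 Ctrl and orange points the 3 cKO libraries, and the shape gives the replicate number. Syt6, Syt8, Stx19, Vamp9, Cplx3 and Cplx4 lie below 1 TPM in every library.

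In the comparison of cKO with Ctrl, 1 member, Rab3c, was lower in cKO and 0 were higher at an adjusted p under 0.05 (edgeR quasi-likelihood test). That is 1.79% of the tested members, where 0.481% of all tested genes passed, 0.370% lower and 0.112% higher. At an unadjusted p under 0.05, 12 members were lower and 4 higher, 28.6% of the members beside 10.7% of all genes. The DESeq2 test called 2 members lower (Rab3c, Rab3d) and 2 higher (Syn2, Syt10), where it called 129 of all genes lower and 55 higher. With limma-voom, 1 member was lower and 0 higher, beside 40 and 13 of all genes. The groups are numbered 1 to 3 alike, and same-numbered libraries deviated together, so a model with the replicate number as a block was also used. With this replicate block, 9 members were lower (Rab3c, Rab3d, Stx11, Stx17, Cplx1, Sv2a, Syt1, Syt2, Syt5) and 5 higher (Syn2, Sv2b, Syt7, Syt10, Syt17). These 14 are 25% of the tested members, where the block called 5.33% of all tested genes, 3.56% lower and 1.76% higher. The genes behind these shares were not matched to the members by expression level. Without the block, the median absolute log2 fold change was 0.109 for the tested members and 0.085 for all tested genes. The split of all genes moved with the scaling: 53 lower and 16 higher became 28 and 16 with library totals in place of TMM, and 511 and 253 with the block became 403 and 396, while the members became 7 lower and 5 higher with the block. In bulk tissue, fewer cells of a type and less RNA per cell cannot be told apart, and p-values measure only the spread between these samples.

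All 14 genes differed in the same direction in all 3 same-numbered pairs. The block that picked them favours such genes, so this is no separate support. Of all 56 tested members, 23 were negative and 8 positive in all 3 pairs. The same count was not made over all tested genes, so no trait of the set is read from it. The median log2 fold change of the tested members was -0.04, beside 0.0044 for all tested genes, and 35 of 56 members (62.5%) were negative, beside 48.6% of all genes. By pair, the median log2 ratio of the members was -0.07, -0.03 and -0.06. CPM values of the groups did not overlap for 17 members, 12 lower and 5 higher in cKO, which is 30.4% of them, beside 16.6% of all tested genes. Without both libraries numbered 1, the blocked model called 9 members lower and 7 higher, where it called 5.10% and 3.62% of all genes in those directions. Of the 14 genes, 13 were called again. Cplx1 was lost (adjusted p = 0.144, edgeR), while Syt4 was called lower and Syn1 and Syt13 higher. With both libraries numbered 2 left out instead, the blocked model called 5 members lower and 1 higher. Calls over all genes also fell there, to 184 lower and 76 higher.

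**Figure D2:**
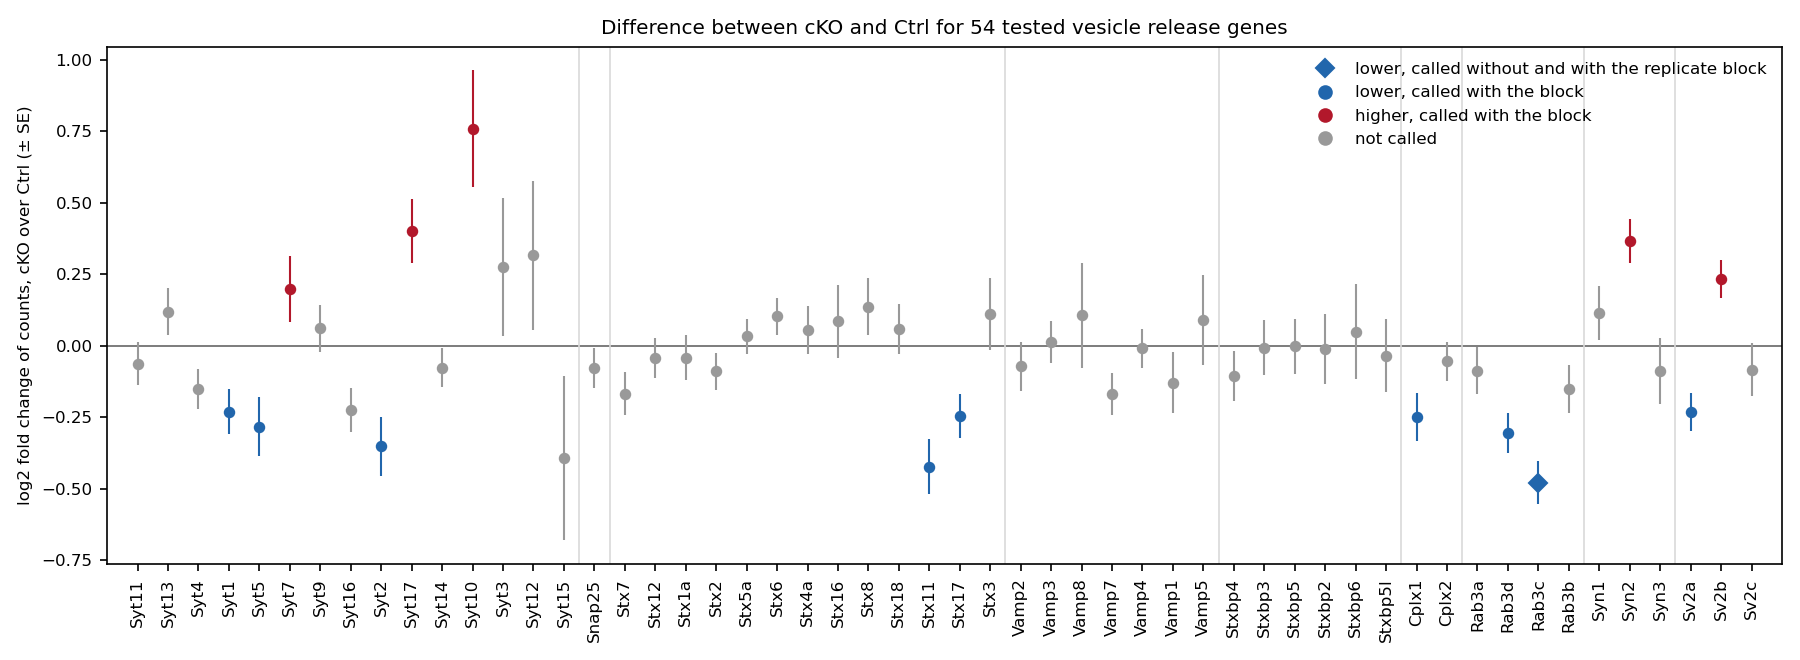
Log2 fold change of counts, cKO over Ctrl, for 54 of the tested genes in the order of the levels plot, with bars of ± 1 SE from the model without the block. The diamond marks Rab3c, the one gene called in both models; blue and red circles mark the other 8 lower and the 5 higher genes called with the block, and grey circles those not called.

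Rab3 proteins are small GTPases that sit on secretory vesicles and bind the release machinery in their GTP form. All 4 genes had a negative log2 fold change, with 1 called without the block and 2 with it. Rab3c (chr13:110054187-110280996, minus strand, GRCm38.p6) was at 90.0, 98.5 and 96.0 CPM in Ctrl 1 to 3 and at 62.3, 73.5 and 68.5 CPM in cKO 1 to 3. Every cKO library lay below every Ctrl library, and the log2 ratios within the pairs were -0.53, -0.42 and -0.49. The log2 fold change was -0.48 (SE 0.08), or 0.718-fold (adjusted p = 0.0206, edgeR; 7.65e-05 with the replicate block). Without the block, the call was lost when Ctrl 2 (adjusted p = 0.135), Ctrl 3 (0.110), cKO 2 (0.0516) or cKO 3 (0.0675) was left out in edgeR. It was also lost there without both libraries numbered 2 or both numbered 3, where 0 members were called lower. Without both libraries numbered 1, edgeR called it (adjusted p = 8.94e-06), and so did all 7 models with the block.

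On the TPM scale the difference in Rab3c was smaller. Its levels were 23.56, 23.95 and 24.08 TPM in Ctrl and 15.17, 22.34 and 20.36 TPM in cKO, again without overlap, with cKO 1 the lowest. In limma on log2(TPM + 1) the log2 difference was -0.31 (adjusted p = 0.535), not past the threshold. The deposited counts and TPM of this gene were not proportional: its count per TPM, relative to its mean, was 0.961, 1.12 and 1.08 in Ctrl and 1.01, 0.911 and 0.933 in cKO, so the groups overlapped. The highest of these was 1.23 times the lowest, where the median over 11622 genes with a mean of at least 100 counts was 1.01. Among those genes, 32 (0.275%) had a group difference in count per TPM at least as large as that of Rab3c.

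**Figure D3:**
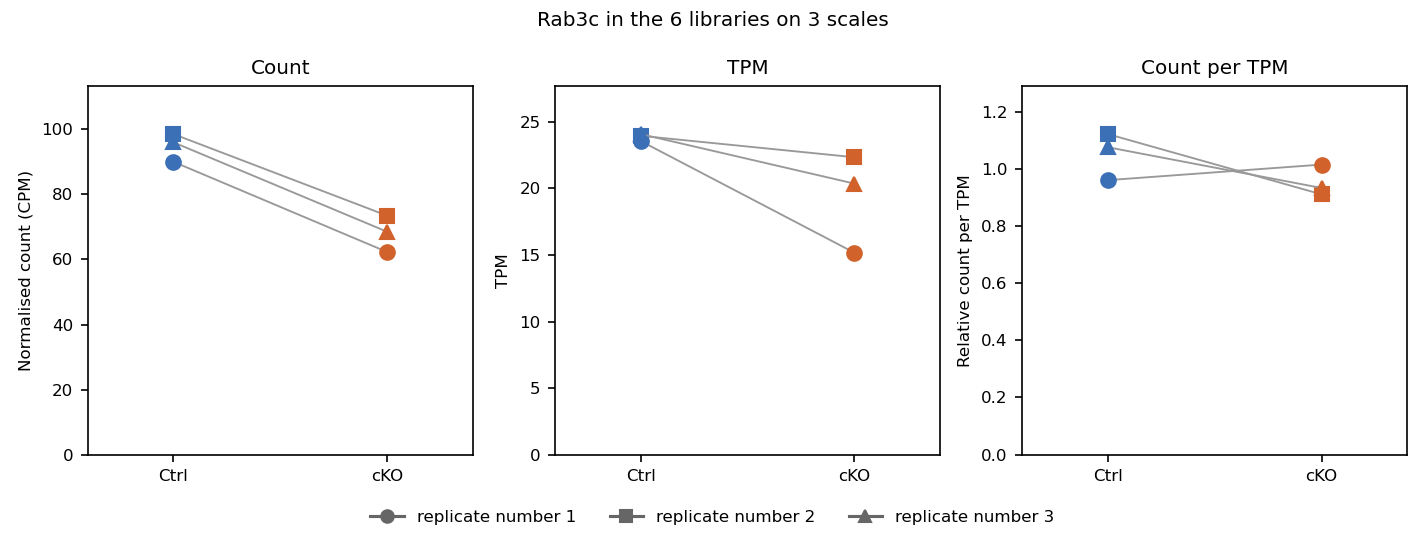
Rab3c in the 6 libraries as normalised count (CPM, left), level per length (TPM, middle) and count per TPM relative to its mean over the libraries (right), with lines joining same-numbered libraries. The cKO values lie below all Ctrl values in the first and middle panels, while the groups overlap in the right panel.

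Rab3d, a form known best from secretory cells outside the nervous system, was at 103, 102 and 100 CPM in Ctrl and 75.7, 87.0 and 84.3 CPM in cKO. The groups did not overlap, and the log2 fold change was -0.31 (SE 0.07; adjusted p = 0.0934, edgeR; 0.0047 with the replicate block). Rab3a, the main form of neurons and the most abundant gene of the set, was at 371, 363 and 328 TPM in Ctrl and 310, 369 and 336 TPM in cKO. Its groups overlapped, with cKO 1 the lowest, and its log2 fold change was -0.09 (SE 0.08; adjusted p = 0.788, edgeR). Rab3b, at a mean of 15.1 TPM, had a log2 fold change of -0.15 (SE 0.08; adjusted p = 0.590). Rab3c to Rab3a ratios of TPM were 0.0635, 0.0659 and 0.0734 in Ctrl and 0.0489, 0.0605 and 0.0606 in cKO.

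Synapsins coat synaptic vesicles and tie them into the reserve pool. Syn2 had the smallest adjusted p among the members that were higher in cKO. It stood at 112, 111 and 100 CPM in Ctrl and at 128, 149 and 140 CPM in cKO. All cKO libraries lay above all Ctrl libraries, and cKO 1 lay nearest to them. Its log2 fold change was 0.37 (SE 0.08; adjusted p = 0.0672, edgeR; 0.0017 with the replicate block), and the pair ratios were 0.20, 0.43 and 0.48 in log2. Syn1 was at 76.23, 86.40 and 74.52 TPM in Ctrl and 70.94, 102.53 and 87.23 TPM in cKO, with overlap (log2 fold change 0.12, SE 0.09; adjusted p = 0.749). The ratio of Syn2 to Syn1 in TPM was 0.740, 0.701 and 0.729 in Ctrl and 0.904, 0.809 and 0.898 in cKO, so the groups did not overlap. Syn2 was already called higher with the block, so this ratio is no separate support. Exons of Syn2 share 90 bases with Timp4 on the opposite strand, which was at 0.54 to 1.05 TPM, and those of Syn1 share 9 bases with Araf. Exons of Syn3 share far more, 1733 bases, with Timp3, which was at 75.1 to 87.5 TPM. No source used here says if the counting used strand, so the value of Syn3 is uncertain. Syn3, at a mean of 9.12 TPM, had a log2 fold change of -0.09 (SE 0.12; adjusted p = 0.860).

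SV2 proteins are glycoproteins of the vesicle membrane with the fold of transporters, and SV2A is the target of the drug levetiracetam. The pair Sv2a and Sv2b differed in opposite directions. Sv2a was at 77.0, 81.0 and 78.7 CPM in Ctrl and 63.8, 69.3 and 68.5 CPM in cKO, with every cKO library lower (log2 fold change -0.23, SE 0.07; adjusted p = 0.185, edgeR; 0.0176 with the replicate block). Sv2b was at 87.4, 80.9 and 87.5 CPM in Ctrl and 101, 103 and 97.0 CPM in cKO, with every cKO library higher (log2 fold change 0.23, SE 0.07; adjusted p = 0.178; 0.0196 with the block). The ratio of Sv2b to Sv2a in TPM was therefore below 1 in all Ctrl libraries (0.794, 0.697 and 0.779) and near or above 1 in cKO (1.11, 1.03 and 0.987). This ratio restates those differences and is no separate support. Both blocked calls were lost without both libraries numbered 2 (adjusted p = 0.174 for Sv2a and 0.370 for Sv2b). Sv2c, at a mean of 21.4 TPM, had a log2 fold change of -0.08 (SE 0.09; adjusted p = 0.832).

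Promoters of these genes are shown because Rab3c, Sv2a, Sv2b and Syn2 are the vesicle protein genes of which the results above speak, in both directions. Of the 62 members, 48 matched 64 promoters in the RefSeq table of GRCm38.p6, each a window of 300 bases of which 250 lie before the transcription start. Both strands were searched for the letters CCAAT (the Y-box core), GGGCGG (the motif of Sp-family factors), TATAAA (the core promoter motif), CACGTG (the motif of E-box factors) and TGACGTCA (a cAMP response element), and matches are in capitals, a match on the other strand as its reverse complement. Shown 5′ to 3′ along each gene are Rab3c (chr13:110280157-110280456, minus strand, the window of one transcript start inside the annotated gene), Syn2 (chr6:115134652-115134951, plus), Sv2a (chr3:96180977-96181276, plus) and Sv2b (chr7:75309213-75309512, minus).
Rab3c: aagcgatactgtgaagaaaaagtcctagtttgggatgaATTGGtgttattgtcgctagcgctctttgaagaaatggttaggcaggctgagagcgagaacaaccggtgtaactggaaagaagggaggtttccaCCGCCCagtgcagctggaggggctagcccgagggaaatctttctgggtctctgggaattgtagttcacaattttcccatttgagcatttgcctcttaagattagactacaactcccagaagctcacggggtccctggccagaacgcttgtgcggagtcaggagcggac
Syn2: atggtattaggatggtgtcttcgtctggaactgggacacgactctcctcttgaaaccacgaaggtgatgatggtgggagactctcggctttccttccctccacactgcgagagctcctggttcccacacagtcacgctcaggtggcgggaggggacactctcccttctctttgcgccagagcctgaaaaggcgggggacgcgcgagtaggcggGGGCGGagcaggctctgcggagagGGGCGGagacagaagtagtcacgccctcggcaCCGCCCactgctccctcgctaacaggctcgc
Sv2a: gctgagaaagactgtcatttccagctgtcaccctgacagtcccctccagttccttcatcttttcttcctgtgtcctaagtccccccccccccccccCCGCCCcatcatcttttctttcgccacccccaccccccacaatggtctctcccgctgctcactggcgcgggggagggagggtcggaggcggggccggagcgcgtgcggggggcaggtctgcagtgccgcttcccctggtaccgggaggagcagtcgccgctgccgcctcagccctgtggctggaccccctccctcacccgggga
Sv2b: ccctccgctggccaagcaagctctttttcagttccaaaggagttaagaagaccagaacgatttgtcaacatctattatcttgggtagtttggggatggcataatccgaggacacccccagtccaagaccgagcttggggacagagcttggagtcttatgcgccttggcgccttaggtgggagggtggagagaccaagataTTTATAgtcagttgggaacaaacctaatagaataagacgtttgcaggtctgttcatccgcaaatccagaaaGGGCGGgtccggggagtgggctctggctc
The Rab3c window holds CCAAT, read on the other strand, 212 bases before the start and GGGCGG 118 bases before it. Syn2 has 3 matches to GGGCGG, 37 and 13 bases before the start and 19 after it. Sv2a has 1 match to GGGCGG, 154 bases before the start. Syn2 has 1 other window in the table, with 2 matches to CCAAT and none to GGGCGG. Sv2b has TATAAA on the other strand 50 bases before the start and GGGCGG 21 bases after it. None of its 3 other windows holds GGGCGG or CCAAT, and 1 of them holds CACGTG and 1 TATAAA.

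Over all 64 member promoters, GGGCGG was found in 42 (65.6%), beside 35.7% of the 32851 promoters in the table, and the median GC content was 61.8% beside 52.7%. CCAAT was found in 31.2% beside 37.4%, TATAAA in 7.8% beside 13.6%, CACGTG in 12.5% beside 7.2%, and TGACGTCA in 3.1% beside 1.8%. Among genes called with the block, GGGCGG was in 9 of 10 promoters of the lower genes and in 3 of 7 of the higher genes. Counted by gene, at least 1 window held it in all 8 lower and all 3 higher genes that matched, so the shares by promoter differ through genes with several windows. They describe letters in these windows only.

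The core SNARE genes Snap25, Vamp2 and Stx1a did not pass the test in either model. Snap25, the target-membrane SNARE of neurons, was at 147, 168 and 159 TPM in Ctrl and 131, 163 and 161 TPM in cKO (log2 fold change -0.08, SE 0.07; adjusted p = 0.782, edgeR). Vamp2, the main vesicle SNARE, was at 210, 238 and 211 TPM in Ctrl and 172, 237 and 227 TPM in cKO (log2 fold change -0.07, SE 0.09; adjusted p = 0.846). Stx1a, their partner in the plasma membrane, had a mean level of 115 TPM and a log2 fold change of -0.04 (SE 0.08; adjusted p = 0.909). In all of these genes the groups overlapped, and cKO 1 was the lowest library on the TPM scale.

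Of the 14 tested syntaxins, 7 had negative and 7 positive log2 fold changes, and the 2 called with the replicate block were both lower in cKO. None was called without it by edgeR, DESeq2 or limma-voom, and 3 (Stx7, Stx11, Stx17) were lower at an unadjusted p under 0.05. Stx11, known from the release of cytotoxic granules in immune cells, was at 17.7, 19.0 and 19.6 CPM in Ctrl and 13.0, 15.2 and 13.7 CPM in cKO. The groups did not overlap (log2 fold change -0.42, SE 0.10; adjusted p = 0.0834, edgeR; 0.0085 with the block). Which cells of the ganglion held this RNA was not tested. Stx17, which serves the fusion of autophagosomes with lysosomes, was at 29.9, 30.5 and 32.2 CPM in Ctrl and 25.3, 25.8 and 27.1 CPM in cKO, with pair ratios of -0.24, -0.24 and -0.25 in log2. Its log2 fold change was -0.25 (SE 0.08; adjusted p = 0.224; 0.0380 with the block), and the call was lost with library totals (adjusted p = 0.0629) and without both libraries numbered 2 (0.237) or 3 (0.0845).

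The most abundant syntaxins were the endosomal Stx7 and Stx12. Stx7 was at 172, 176 and 160 TPM in Ctrl and 145, 163 and 149 TPM in cKO (log2 fold change -0.17, SE 0.08; adjusted p = 0.453, edgeR; 0.0567 with the replicate block). Its CPM values did not overlap between the groups, and its TPM values did. Stx12 was at 139.70, 148.94 and 139.66 TPM in Ctrl and 138.75, 143.30 and 137.05 TPM in cKO (log2 fold change -0.04, SE 0.07; adjusted p = 0.895). Stx6, a syntaxin of the trans-Golgi network, had non-overlapping groups with cKO higher but did not pass (log2 fold change 0.10, SE 0.07; adjusted p = 0.646). Over the 14 syntaxins the log2 fold change ran from -0.42 to 0.14, with a median of -0.0044.

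None of the 7 tested Vamp genes was called by edgeR with or without the block, DESeq2 or limma-voom, and 1, Vamp7, was lower at an unadjusted p under 0.05. Their log2 fold changes ran from -0.17 (Vamp7, a SNARE of late endosomes and growing axons) to 0.11 (Vamp8). Vamp3, the widely expressed relative of Vamp2, was at 45.64, 47.30 and 47.30 TPM in Ctrl and 47.86, 47.19 and 47.49 TPM in cKO, with a log2 fold change of 0.01 (SE 0.07; adjusted p = 0.972, edgeR). For Vamp2 and Vamp3 the sign depended on the libraries used: without both libraries numbered 1 it was 0.02 and -0.03.

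The Stxbp genes, like Snap25 and the Vamp genes, had no call in any of these tests, and none of the 7 reached an unadjusted p under 0.05. Their log2 fold changes ran from -0.11 to 0.05, with a median of -0.01. Stxbp4 was at 14.04, 17.67 and 18.37 TPM in Ctrl and 13.37, 16.14 and 17.06 TPM in cKO (log2 fold change -0.11, SE 0.09; adjusted p = 0.755).

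Complexins clamp and then promote the assembled SNARE complex. Cplx1 was at 115, 103 and 96.3 CPM in Ctrl and 83.6, 95.9 and 84.6 CPM in cKO. The groups did not overlap, but Ctrl 3 and cKO 2 nearly met, and the pair ratios were -0.46, -0.10 and -0.19 in log2. Its log2 fold change was -0.25 (SE 0.08; adjusted p = 0.273, edgeR; 0.0387 with the replicate block), and -0.14 without both libraries numbered 1 (adjusted p = 0.144 with the block). Cplx2 was at 66.69, 70.12 and 70.00 TPM in Ctrl and 59.38, 68.10 and 74.12 TPM in cKO, with overlap (log2 fold change -0.05, SE 0.07; adjusted p = 0.853).

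Synaptotagmins, like the Sv2 genes, had calls in both directions. Of 15 tested genes, 8 had negative and 7 positive log2 fold changes, and with the replicate block 3 were lower (Syt1, Syt2, Syt5) and 3 higher (Syt7, Syt10, Syt17). None was called by edgeR without the block or by limma-voom, DESeq2 called Syt10 higher, and 4 were lower (Syt1, Syt2, Syt5, Syt16) and 2 higher (Syt10, Syt17) at an unadjusted p under 0.05.

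Syt1 and Syt2 encode fast calcium sensors of synchronous release. Syt1 was at 147, 163 and 165 CPM in Ctrl and 127, 147 and 131 CPM in cKO, with Ctrl 1 and cKO 2 level and each cKO library below its same-numbered Ctrl library (log2 fold change -0.23, SE 0.08; adjusted p = 0.278, edgeR; 0.0164 with the block). Syt2 was at 84.3, 96.1 and 91.1 CPM in Ctrl and 58.6, 74.6 and 79.6 CPM in cKO, without overlap and with cKO 1 the lowest (log2 fold change -0.35, SE 0.10; adjusted p = 0.198; 0.0032 with the block). Syt5, a calcium-binding form found on dense-core vesicles, was at 48.8, 47.6 and 42.3 CPM in Ctrl and 41.4, 40.8 and 31.9 CPM in cKO. Its groups lay close together at Ctrl 3 and cKO 1 and did not overlap (log2 fold change -0.28, SE 0.10; adjusted p = 0.324; 0.0145 with the block). The ratio of Syt2 to Syt1 in TPM overlapped between the groups (0.357 to 0.382 in Ctrl and 0.300 to 0.403 in cKO).

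Syt7 encodes a slower sensor of high calcium affinity that acts in asynchronous release and in lysosome exocytosis. It was at 80.3, 106 and 100 CPM in Ctrl and 92.8, 119 and 118 CPM in cKO. Both libraries numbered 1 were low, so the groups overlapped, while each cKO library lay above its same-numbered Ctrl library (log2 ratios 0.21, 0.16 and 0.23; log2 fold change 0.20, SE 0.11; adjusted p = 0.608, edgeR; 0.0308 with the replicate block). In TPM the ratio of Syt7 to Syt1 was 0.407, 0.464 and 0.429 in Ctrl and 0.533, 0.583 and 0.657 in cKO, without overlap. With the block Syt7 was called higher and Syt1 lower, so this ratio restates those differences and is no separate support. Syt17, a form without a membrane span, was at 17.1, 17.4 and 14.4 CPM in Ctrl and 18.6, 23.7 and 22.4 CPM in cKO (log2 fold change 0.40, SE 0.11; adjusted p = 0.174; 0.0232 with the block). Its groups did not overlap, and cKO 1 was the nearest to Ctrl.

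Syt10 had the largest fold of the set at a low level. It was at 5.35, 5.95 and 6.13 CPM in Ctrl and 7.44, 13.6 and 8.46 CPM in cKO, so that cKO 2 stood apart (log2 fold change 0.76, SE 0.20; adjusted p = 0.153, edgeR; 0.0100 with the block). Without both libraries numbered 2 the log2 fold change was 0.47 with an adjusted p of 0.202 in the blocked model. In TPM it ran from 1.82 to 2.60 in Ctrl and from 2.69 to 6.07 in cKO.

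Calls of Syt1, Syt5, Syt7 and Syt17 with the block were lost without both libraries numbered 2 (adjusted p = 0.0782, 0.0554, 0.225 and 0.137, edgeR) and without both numbered 3 (0.0686, 0.0520, 0.0732 and 0.107). Those of Rab3c, Rab3d, Stx11, Syn2 and Syt2 held in all 7 models with the block. The most abundant synaptotagmins, Syt11 and Syt13, are known as forms that do not bind calcium. Syt11 was at 236, 268 and 273 TPM in Ctrl and 217, 265 and 270 TPM in cKO (log2 fold change -0.06, SE 0.08; adjusted p = 0.845). Syt13 was at 159, 161 and 149 TPM in Ctrl and 146, 184 and 187 TPM in cKO (log2 fold change 0.12, SE 0.08; adjusted p = 0.677), and its log2 fold change was 0.23 without both libraries numbered 1 (adjusted p = 0.0091 without and 0.000343 with the block).

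**Figure D4:**
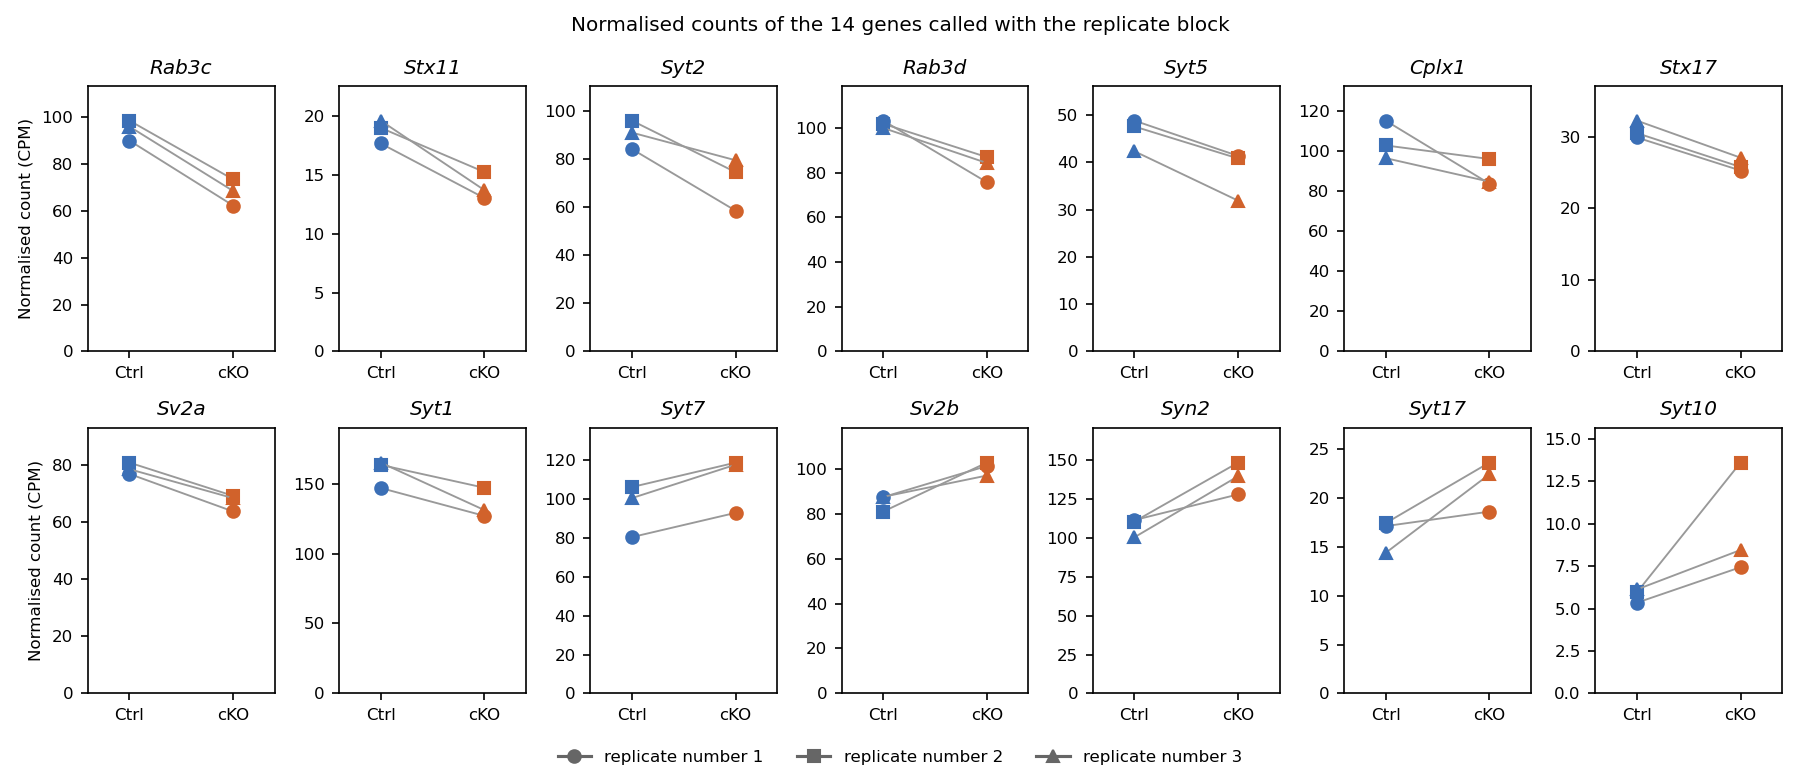
Normalised counts (CPM, axes from 0) of the 14 genes called with the replicate block, ordered from the most negative to the most positive log2 fold change. Lines join the Ctrl and cKO library of each replicate number. Each of the 3 lines falls in the 9 genes called lower and rises in the 5 called higher, a pattern that the block favours.

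Other genes of the release pathway were counted in 6 lists. None of them was called without the block by edgeR, DESeq2 or limma-voom, and the numbers at an unadjusted p under 0.05 were 4 of 27 active zone and priming genes, 4 of 22 other SNAREs and disassembly factors, 3 of 21 vesicle membrane proteins, 5 of 26 endocytosis genes, 3 of 13 dense-core vesicle genes and 0 of 10 calcium channel genes. Together these are 19 of 119 genes, 16.0% beside 10.7% of all tested genes. With the replicate block, 7 of the 119 passed, or 5.88%, which is near the 5.33% of all tested genes in either direction. All 7 were lower in cKO, where 3.56% of all tested genes were lower and 1.76% higher. These are counts only, and no result about the lists is drawn from them. Erc1, an active zone scaffold, had a log2 fold change of -0.22 (adjusted p = 0.0145 with the block, edgeR), and Gosr1, a Golgi SNARE, of -0.21 (0.0448). Atp6ap2, an accessory protein of the vesicle proton pump, had -0.25 (0.0169). In endocytosis, the clathrin adaptor genes Ap2b1 and Snap91 had -0.20 (0.0154) and -0.17 (0.0476), and Amph, amphiphysin, -0.23 (0.0352).

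Ap2b1 was at 486, 483 and 483 CPM in Ctrl and 410, 431 and 425 CPM in cKO, without overlap. Median log2 fold changes of the lists ran from -0.06 to -0.01. None of the dense-core vesicle or calcium channel genes passed with the block. In the blocked model 4 of 13 and 1 of 10 had an unadjusted p under 0.05 (edgeR), beside 3 and 0 without the block. The share of all tested genes at that threshold with the block was not counted. The most abundant genes of these lists were the cargo genes Cpe (log2 fold change -0.05; adjusted p = 0.864) and Scg3 (-0.05; 0.868) and the channel subunit genes Cacnb3 (-0.11; 0.724) and Cacna2d1 (-0.18; 0.607).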

How the data were processed

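Total RNA of 6 samples was sequenced as mRNA libraries, per the labels' protocols. HISAT2 2.2.1, Bowtie2 2.4.5, RSEM 1.3.1 and the build GRCm38 (mm10) are named in the submitters' processing notes, without their roles. The authors deposited estimated counts per gene, not normalized (88.4% to 88.6% of values whole, with no fractional part), TPM values, used here as levels per length, and FPKM values, which were not used. No column was left without a sample.

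Counts were rounded, filtered with filterByExpr, scaled by TMM and tested two-sided with the robust quasi-likelihood test of edgeR 4.0.16 in R 4.3.3, adjusted by Benjamini-Hochberg over 14338 genes at a threshold of 0.05. Each SE is the log2 fold change divided by the root of its F statistic. The scripts were checked on simulated counts. The main model had no block. After subtracting group means, same-numbered libraries had correlations of 0.383, 0.220 and 0.189 over all tested genes, and the controls are littermates, so the numbers were taken to pair the samples and blocked values stand beside results whose call they change. Members, gene lists and the rule for the genes named (called in either model, the highest 2 of each family, the largest 3 changes; up to 4 called genes or the highest 2 of each related list) were chosen with earlier results of these data known. A few genes covered by these choices are not reported here. Alternatives were DESeq2 1.42.0 (test, size factors), limma 3.58.1 (voom, and TPM with a pseudocount of 1 or 0.1), library totals, other filters, the block, left-out libraries and, added after seeing the data, the block with a correction for GC content and transcript length (longest GENCODE M21 transcript), which 97.5% of tested genes had. Promoters, coordinates and exon overlaps come from RefSeq and GENCODE for GRCm38.p6. Python 3.11.15 with matplotlib 3.10.9 drew the figures.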

Additional observations from a re-analysis of the deposited data

How the results depend on the processing

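Counts below give members lower and higher, then all genes lower and higher, then calls in the related lists: active zone, other SNAREs, vesicle membrane, endocytosis, dense-core vesicle and calcium channels. Without a block these were 1, 0, 53 and 16, with no call in any list. The DESeq2 test gave 2, 2, 129 and 55 (0 in every list). Library totals gave 1, 0, 28 and 16, no low-count filter 1, 1, 90 and 38, limma on either TPM scale 0, 0, 11 and 4. Leaving out both libraries numbered 1 gave 6, 6, 449 and 282 with list calls of 1, 1, 2, 2, 1 and 1, both numbered 2 gave 0, 0, 2 and 6, and both numbered 3 gave 0, 0, 1 and 1. Without 1 library at a time, members ran from 0 to 1 lower and 0 to 3 higher, genes from 12 to 65 lower and 6 to 39 higher.

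With the replicate block the counts were 9, 5, 511 and 253, with list calls of 1, 1, 2, 3, 0 and 0. DESeq2 size factors gave 9, 5, 493 and 238 (1, 1, 2, 2, 0 and 0), library totals 7, 5, 403 and 396 (1, 1, 2, 1, 1 and 0), and the offset for length and GC content 11, 5, 683 and 347 (3, 3, 2, 4, 1 and 0). Paired models without both libraries numbered 1 gave 9, 7, 732 and 520 (1, 3, 2, 2, 1 and 2), without number 2 gave 5, 1, 184 and 76, and without number 3 gave 8, 3, 551 and 285 (1, 1, 1, 3, 1 and 2).

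The median log2 fold change of the members stayed negative in all of these, at -0.016 with library totals with or without the block, -0.067 without both libraries numbered 3 with or without it, and -0.069 to -0.020 without 1 library at a time. Signs turned for several genes not called by edgeR with or without the block, among them Vamp8 (0.11, and -0.03 without both libraries numbered 1), Madd (-0.01 and 0.05), Rab3gap2 (-0.01 and 0.02) and Rab3ip (-0.01 and 0.06). Without both libraries numbered 1, with and without the block, Vamp2 had 0.020 and 0.018, Vamp3 -0.030 and -0.030, and Scg3 0.015 and 0.016. Without 1 library at a time, Vamp2 ran from -0.135 to 0.013 and Vamp3 from -0.051 to 0.044. The cause was not tested. Fitted changes of genes below about 5 CPM have wide errors: Syt12 and Syt15, at 0.816 to 2.42 CPM, had SEs of 0.26 and 0.29.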

Other observations

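Genes that act on Rab3 proteins were looked up after the values of Rab3c and Rab3d had been seen. None of Rab3gap1 and Rab3gap2, which encode the Rab3 GTPase-activating complex, Madd and Rab3il1, which encode exchange factors, and Rab3ip was called by edgeR with or without the replicate block. Rab3gap1 was at 19.23, 20.57 and 22.61 TPM in Ctrl and 18.05, 21.18 and 19.45 TPM in cKO (log2 fold change -0.10, SE 0.07; adjusted p = 0.708). Madd was at 23.17, 29.50 and 26.91 TPM in Ctrl and 20.57, 29.05 and 30.57 TPM in cKO (log2 fold change -0.01, SE 0.10; adjusted p = 0.990). Of the related release GTPases, Rab27b was at 4.45 to 6.05 TPM over the 6 libraries (log2 fold change -0.18, SE 0.09; adjusted p = 0.536; 0.196 with the block), and Rab27a stayed below 1 TPM in every library.

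Counts and TPM were also out of proportion for Stx8 and Syt10. The count per TPM of Stx8 differed by 1.88 times between its highest and lowest library, and that of Syt10 by 1.57 times, where the median over genes with a mean of at least 100 counts was 1.01. Stx8 was at 25.54, 16.54 and 34.19 TPM in Ctrl, while its normalised counts were 22.4, 17.3 and 19.3 CPM. Transcript-level values were not analysed here.

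On the TPM scale cKO 1 was the lowest library for 34 of the 56 tested members, and in CPM for 23. The same count was not made over all tested genes, so it is not read as a trait of the set. In cKO 1 the erythroid genes summed to 36472 TPM, beside 10591 to 17443 TPM in the other libraries, and their part in these counts was not tested.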
